A study of Mesocricetus auratus with 6 samples.

Results

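The sodium-potassium pump keeps sodium low and potassium high inside animal cells. Its catalytic alpha subunit moves the ions, a glycosylated beta subunit lets the alpha subunit fold and reach the plasma membrane, and small single-span FXYD proteins tune its affinity for the ions. In epithelia the pump sits mostly on the basolateral side, where it drives the absorption and secretion of salt and water, and beta subunits of neighbouring cells can bind each other. In the uterus of rodents, luminal fluid is taken up and the lumen closes around the blastocyst at about the time of attachment.

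The genes described here are 7 of the 11963 genes measured, namely the beta subunit genes ATP1B1, ATP1B2 and ATP1B3 and the FXYD genes FXYD1, FXYD2, FXYD3 and FXYD5, read by 9 probe sets. They were chosen on the same arrays, because both probe sets of ATP1B1 were lower at implantation sites and 1 of them differed more than any other probe set. That comparison is therefore given as a description and without p-values for these genes. Catalytic subunits of the pump were not analysed here.

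RNA came from the uterus of untreated Syrian golden hamsters, Mesocricetus auratus, that were pregnant and at day 5. The embryo implantation sites, pieces of uterus with an attaching embryo, gave 3 arrays, and the interimplantation sites, pieces of uterus free of embryos, gave the other 3. The labels call the arrays of a group biological replicates and the design text speaks of 3 animals without tying arrays to animals, so errors and p-values reflect how these arrays vary, which may be partly technical. The labels give neither strain nor age, and every piece mixes epithelium, stroma, muscle, vessels and possibly embryo.

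Hamster RNA was read on an Affymetrix array made for human transcripts. How well each probe set matches its hamster transcript is unknown, a mismatch can flatten a difference, and levels of different probe sets are not compared. Values are the authors' RMA values on the log2 scale, and a difference of 1 is a doubling. Array medians ran from 4.18 to 4.20, and correlations over all probe sets were 0.989 to 0.995 between arrays of 1 group. All 9 probe sets had a mean above 4.19, the median of all probe set means, and the annotation of the hamster genome has a protein-coding gene of the same symbol for each of the 7 genes.

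ATP1B1, the most widespread beta subunit and the usual one of epithelia, stood far lower at implantation sites. Its probe set 201242_s_at read 5.08, 5.27 and 5.27 at implantation sites, against 7.08, 7.51 and 7.10 at interimplantation sites. The groups were separated by 1.81, several times the range within either group. The means were 5.21 ± 0.11 at implantation sites and 7.23 ± 0.24 at interimplantation sites (SD, n = 3 arrays each), a log2 difference of -2.03 ± 0.11 (SE of limma's fit), or 4.07-fold lower.

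The other ATP1B1 probe set, 201243_s_at, read 5.57, 6.20 and 5.81 at implantation sites, against 6.66, 6.62 and 6.81 at interimplantation sites. The groups did not overlap here either, but implantation site 2 came within 0.41 of the lowest interimplantation site. The means were 5.86 ± 0.32 at implantation sites and 6.70 ± 0.10 at interimplantation sites (SD, n = 3 arrays each), and the log2 difference was -0.83 ± 0.13 (SE), or 1.78-fold lower.

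These are the values on which the genes were chosen. Among falls, 201242_s_at ranked 1 and 201243_s_at ranked 15 of 22215 probe sets, and the fall next in size was -1.22 at 201539_s_at, for which the annotation used here lists no gene. The largest difference of any other probe set, in either direction, was 1.96 at FST, which encodes the activin-binding protein follistatin.

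Both probe sets placed ATP1B1 lower, while they gave different sizes for the fall. Their differences lay 1.19 apart. Among the 4310 genes with several probe sets the median gap was 0.14, and 6 genes, ATP1B1 included, had a gap of 1.19 or more. Within single arrays, 201242_s_at minus 201243_s_at was -0.49, -0.94 and -0.54 at implantation sites, against 0.43, 0.89 and 0.29 at interimplantation sites. These gaps did not overlap between the groups, and their sign is not read, since levels of different probe sets are not compared. The order of arrays within a group also differed between the probe sets, since interimplantation site 2 was the highest of its group at 201242_s_at and the lowest at 201243_s_at. Whether the probe sets read different transcript forms or match the hamster transcript to different degrees was not tested.

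**Figure D1:**
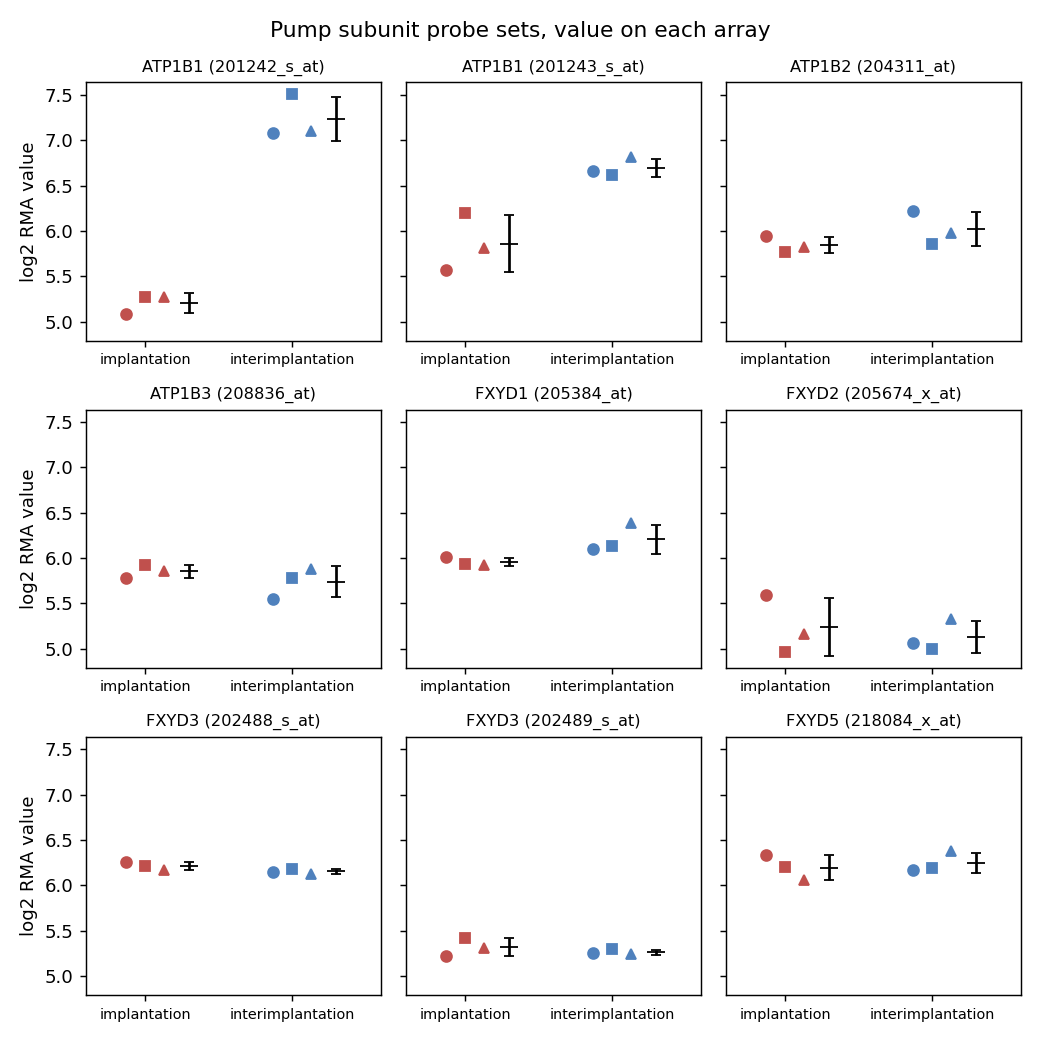
Log2 RMA value (vertical axis) of each of the 9 probe sets on each array, with implantation sites in red on the left and interimplantation sites in blue on the right of each panel. Circles, squares and triangles are replicates 1, 2 and 3, and black bars are the group mean ± SD (n = 3). The ATP1B1 panels show separated groups (5.08 to 5.27 against 7.08 to 7.51, and 5.57 to 6.20 against 6.62 to 6.81), whereas the other panels, except FXYD1, show overlapping groups.

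The other beta subunits did not show a difference of that size. ATP1B2, a beta subunit best known from glia as an adhesion molecule, read 5.94, 5.77 and 5.82 at implantation sites, against 6.22, 5.85 and 5.98 at interimplantation sites. The groups overlapped, and the log2 difference was -0.17 ± 0.10 (SE) with a 95% confidence interval of -0.39 to 0.04. ATP1B3, a beta subunit found in many tissues, read 5.78, 5.93 and 5.86 at implantation sites, against 5.55, 5.78 and 5.88 at interimplantation sites. Here the groups overlapped too, and the difference of 0.12 ± 0.09 (SE) had an interval of -0.09 to 0.32. The bounds of both intervals were nearer to 0 than either ATP1B1 difference.

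Among the FXYD genes, FXYD1 was the 1 member whose groups did not overlap. FXYD1 encodes phospholemman, a regulator of the pump best known from heart and skeletal muscle. It read 6.01, 5.93 and 5.93 at implantation sites, against 6.09, 6.13 and 6.39 at interimplantation sites. The groups lay 0.08 apart and the log2 difference was -0.25 ± 0.09 (SE), carried most by interimplantation site 3. Without that array it was -0.16.

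FXYD2, the gamma subunit known from kidney tubules, read 5.60, 4.97 and 5.16 at implantation sites, against 5.07, 4.99 and 5.32 at interimplantation sites. Its groups overlapped, and implantation site 1 stood above the other arrays. The difference of 0.11 ± 0.14 (SE) turned to -0.06 without that array, and the spread within groups (SD 0.26) was larger than in 98.8% of probe sets.

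FXYD3, which is expressed in many epithelia, had the steadiest readings of the family. Its probe set 202488_s_at read 6.26, 6.21 and 6.17 at implantation sites, against 6.15, 6.18 and 6.12 at interimplantation sites. Its second probe set, 202489_s_at, read 5.22, 5.42 and 5.31 at implantation sites, against 5.25, 5.29 and 5.24 at interimplantation sites. The differences were 0.06 and 0.05, with 95% confidence intervals of -0.09 to 0.22 and -0.12 to 0.22, so both probe sets gave the same small value and the groups overlapped at each.

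FXYD5, or dysadherin, is known for weakening cell adhesion as well as for binding the pump. It read 6.33, 6.20 and 6.06 at implantation sites, against 6.17, 6.19 and 6.38 at interimplantation sites. The groups overlapped, with a difference of -0.05 ± 0.09 (SE) and an interval of -0.25 to 0.15.

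Over the family, 2 of 9 probe sets, both of ATP1B1, passed limma's threshold of an adjusted p of 0.05, where 1.06% of all probe sets passed and 0.356% passed as lower. Because ATP1B1 was chosen on this comparison, nothing further is read from that count. Without implantation site 3, or without interimplantation site 3, 201243_s_at missed the threshold and 1 probe set passed. The groups did not overlap in 3 of 9 probe sets, against 16.0% of all probe sets. In all, 5 were lower and 4 higher, with a median difference of -0.05 against -0.01 over all probe sets. The large difference in the family was thus at ATP1B1, and the remaining 7 probe sets lay between -0.25 and 0.12.

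**Figure D2:**
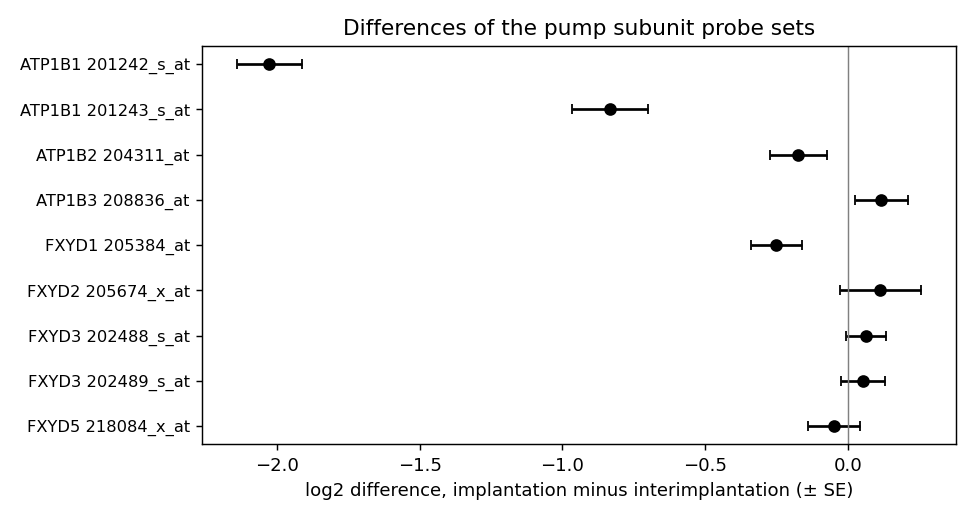
Log2 difference, implantation minus interimplantation sites (horizontal axis), for each of the 9 probe sets; points are limma estimates and bars ± SE. The ATP1B1 probe sets lie at -2.03 and -0.83, and the other 7 between -0.25 and 0.12.

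Of 8 further pump subunit genes listed, 3 were measured. FXYD6 and FXYD7 are FXYD proteins best known from the nervous system, and ATP1B4 is a relative of the beta subunits that is known from muscle nuclei in placental mammals. FXYD7 read 4.96, 5.01 and 5.23 at implantation sites, against 4.74, 4.97 and 4.96 at interimplantation sites, a difference of 0.18 ± 0.10 (SE). FXYD6 differed by 0.02 ± 0.07 and ATP1B4 by -0.04 ± 0.08 (SE), and the groups overlapped in each. In limma's test, adjusted over all genes, 0 of these 3 passed, and 0 had an unadjusted p under 0.05.

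The surrounding genes of ion transport were then read in 10 lists of textbook members, each gene at its brightest probe set. Of 153 measured genes, 1 rose and 2 fell in limma's test, which is 1.96%, close to the 1.24% of all genes that passed (0.777% higher and 0.460% lower). Their median difference was -0.02, against -0.01 over all genes, so both the share and the median were near those of all genes. The genes that passed were ATP12A, KCNMA1 and HSPA5.

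ATP12A, the catalytic subunit of the non-gastric proton-potassium pump, can pair with the ATP1B1 protein in the rat. It read 6.40, 6.30 and 6.23 at implantation sites, against 6.65, 6.81 and 6.71 at interimplantation sites. It fell by 0.41 ± 0.08 on the log2 scale (SE, adjusted p = 0.0310, limma over all genes), lower on each of the 3 implantation arrays than on any interimplantation array. The call was lost without implantation site 2 or 3, or interimplantation site 2 or 3 (adjusted p up to 0.151). The subunits of the gastric proton pump, ATP4A and ATP4B, were at 0.05 and -0.01 and did not pass.

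KCNMA1, the large-conductance calcium-activated potassium channel of smooth muscle and other cells, read 6.14, 6.37 and 6.37 at implantation sites, against 6.88, 7.11 and 7.04 at interimplantation sites. Its groups were well apart, and it fell by 0.72 ± 0.09 (log2, SE, adjusted p = 0.00245, limma over all genes). Its dimmer probe sets, 214921_at and 221583_s_at, were at 0.03 and 0.04, and with the mean of its probe sets the difference was -0.22 (adjusted p = 0.270). Among the other channels of the list, KCNK1 was at -0.25 ± 0.09 (SE) and did not pass.

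HSPA5, the chaperone BiP of the endoplasmic reticulum, where beta and alpha subunits are assembled, rose in a list of 9 measured assembly genes. It read 3.62, 3.74 and 3.88 at implantation sites, against 3.23, 3.28 and 3.42 at interimplantation sites, all under the median probe set mean of 4.19. The groups did not overlap, and the difference was 0.43 ± 0.09 (SE, adjusted p = 0.0392, limma over all genes). The call was lost when any 1 of 5 of the 6 arrays was left out (adjusted p up to 0.175). SEC61B, a subunit of the translocon, was at 0.35 ± 0.09 (SE) and did not pass.

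In the other lists limma called 0 genes after adjustment over all genes. Of 11 pumps for calcium and copper, ATP2A2, the calcium pump of the reticulum, was at 0.62 ± 0.15 (SE) at its brightest probe set and -0.24 at 212362_at, so its probe sets disagreed. ATP2C1, a Golgi pump for calcium and manganese, was at -0.12, and at 0.05, -0.23 and -0.09 at its dimmer probe sets. Before adjustment (p under 0.05), 1 gene of this list was higher and 0 were lower. The share of all genes at that level is not given. Counts before adjustment, here and in the lists below, therefore have no background to be read against.

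Of 17 genes for sodium entry, chloride and water channels, CLIC4, an intracellular chloride channel protein, was at 0.17 and the water channel gene AQP5 at 0.14. The dimmer probe sets of CLIC4 were at -0.01 and 0.04. The list ran from -0.17 to 0.17, with 1 gene higher and 0 lower before adjustment (p under 0.05). This list holds subunits of the epithelial sodium channel, the entry path for sodium in absorbing epithelia, of which SCNN1B was at -0.10 ± 0.07 (SE).

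The next lists hold exchangers, cotransporters and nutrient carriers, many of which use the sodium gradient, while others, such as the anion exchangers and the potassium-chloride cotransporters, do not. Of 20 ion exchangers and cotransporters, the bicarbonate transporters SLC4A5 and SLC4A4 were at -0.22 and -0.21, with 0 higher and 1 lower before adjustment (p under 0.05). Of 31 nutrient carriers, the iodide carrier SLC5A5 was at 0.30 and the glutamate carrier SLC1A2 at -0.18, with 1 higher and 1 lower at that level. Dimmer probe sets were at 0.05 for SLC4A5, at -0.01, -0.02 and 0.04 for SLC4A4, and at 0.04 and -0.07 for SLC1A2.

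Of 26 genes for hormonal and kinase control of the pump, NEDD4L, a ubiquitin ligase that removes sodium channels from the membrane, was at -0.37 ± 0.09 (SE) and TSC22D3, a glucocorticoid target, at -0.28 ± 0.10 (SE). Neither passed, although NEDD4L did without interimplantation site 1. Their dimmer probe sets were at 0.02 for TSC22D3 and -0.22 for NEDD4L, with overlapping groups in each. Before adjustment (p under 0.05), 1 gene was higher and 3 were lower. Of 16 membrane anchors, SPTBN1, the beta spectrin of the cortex to which the pump is tied through ankyrin, was at -0.36 ± 0.10 (SE) at its brightest probe set and did not pass, except among the alternatives without interimplantation site 1. A dimmer probe set of SPTBN1, 212071_s_at, read 6.18, 6.10 and 6.08 at implantation sites, against 6.76, 6.93 and 6.72 at interimplantation sites, and passed among single probe sets (log2 -0.69, adjusted p = 0.00207, limma). Its 4 remaining probe sets lay between -0.02 and 0.17. EPB41, another cortical linker, was at -0.15.

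**Figure D3:**
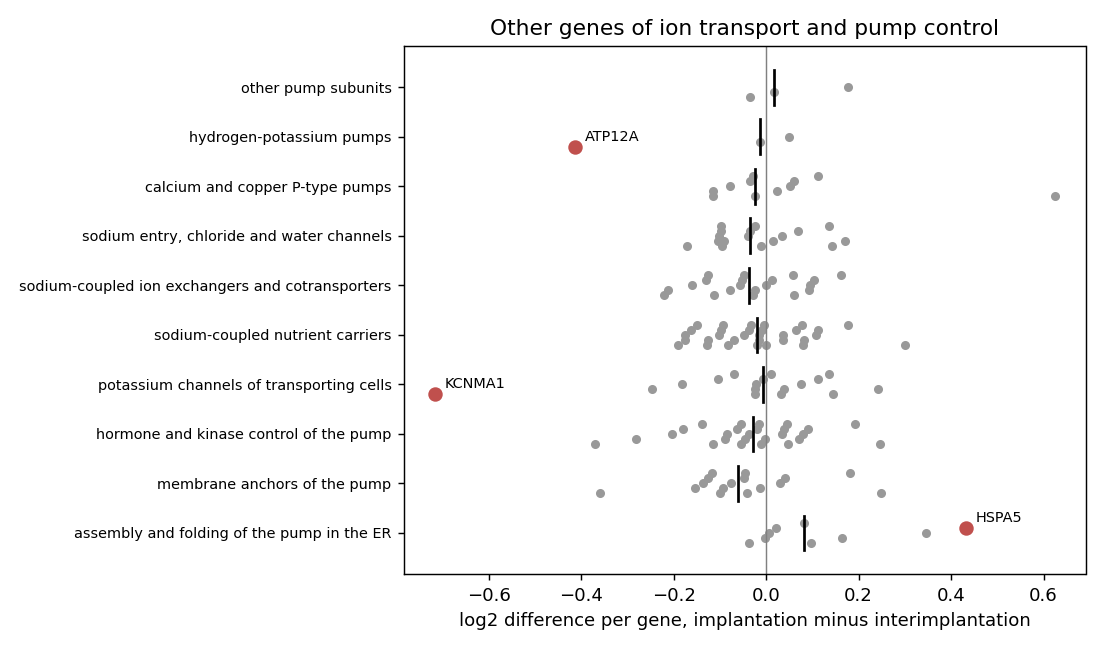
Log2 difference per gene, implantation minus interimplantation sites (horizontal axis), in the 10 lists of ion transport and pump control (rows). Each point is a gene at its brightest probe set, black bars are list medians, and the red points ATP12A (-0.41), KCNMA1 (-0.72) and HSPA5 (0.43) passed limma's threshold over all genes.

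Genes whose arrays ran most like ATP1B1 were found by the root-mean-square distance over the 6 arrays between profiles centred on their own means, among the 9672 brighter probe sets, those not under the median of all probe set means, that name a single gene and no member. The group difference dominates this measure. The nearest to 201242_s_at were HOXB6 (a homeobox factor), HSPB1 (a small heat shock protein), SAT1 (a polyamine acetylase), SRSF7 (a splicing factor) and MACROH2A1 (a histone variant), at distances of 0.50 to 0.60. None of these could match the ATP1B1 difference in size, since 201242_s_at was chosen as the probe set that differed most. The largest of their differences was -1.05 at HOXB6. The nearest to 201243_s_at were SRSF7, SOX17 (a transcription factor of uterine epithelium and vessels), MACROH2A1, IGFBP7 (a secreted IGF-binding protein) and WDR45 (an autophagy protein), at distances of 0.12 to 0.16. The ATP1B1 probe sets themselves were 0.64 apart.

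**Figure D4:**
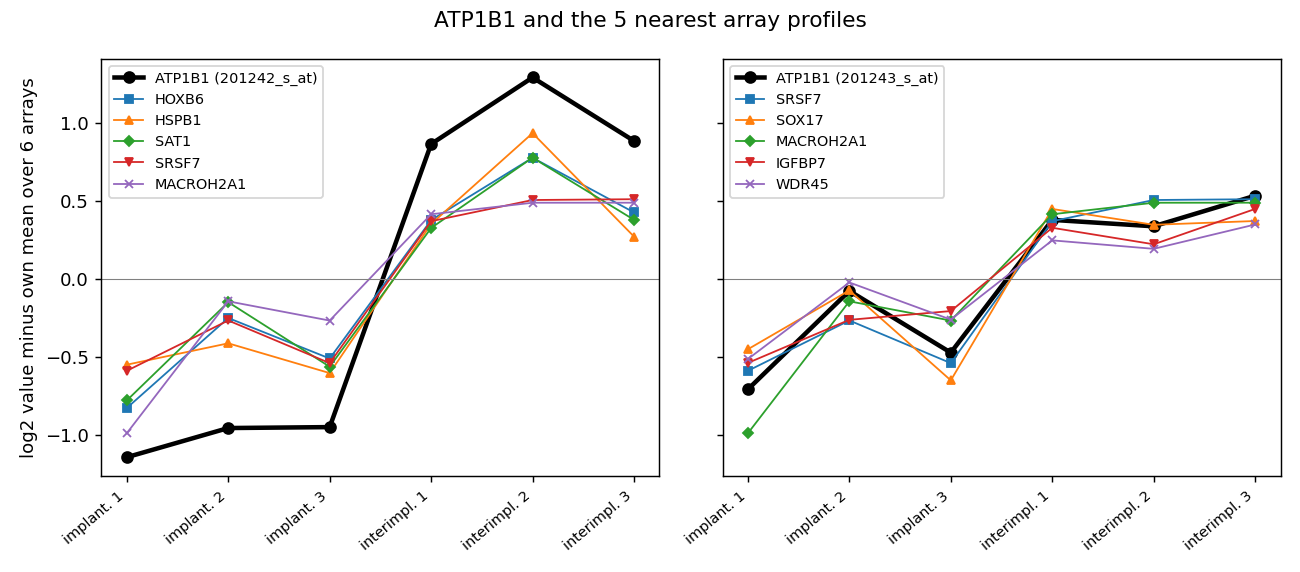
Log2 value minus the probe set's own mean over 6 arrays (vertical axis) for each ATP1B1 probe set (black) and its 5 nearest genes (coloured), with the implantation arrays left of the interimplantation arrays. Lines only join the points of a gene. In the left panel ATP1B1 lies outside its neighbours on all arrays, where its probe set was chosen for having the largest difference. In the right panel the distances are 0.12 to 0.16.

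In pieces of whole tissue, fewer cells of a type and less RNA per cell cannot be told apart, so markers of the cells a piece can hold were read beside ATP1B1. The mean level of 26 epithelial markers was 4.43 to 4.51 at implantation sites, against 4.55 to 4.56 at interimplantation sites, a difference of -0.08 with no overlap. SOX17 was the 1 epithelial marker that fell in limma's test (log2 -0.78 ± 0.12 SE), and KRT19, an epithelial keratin, was at -0.39 ± 0.11 (SE) without passing. Of the 26, 18 were below 0, with a median of -0.03, where 52.4% of all genes were below 0. No share of all genes is given for p under 0.05 before adjustment, so counts at that level have no background to be read against. Before adjustment (p under 0.05) 0 of the 26 were higher and 5 lower. These 5 were SOX17, KRT19, the keratin gene KRT8 at -0.24 ± 0.08 (SE), the tight junction gene CLDN3 at -0.23 ± 0.10 (SE) and the surface antigen gene CD24 at -0.27 ± 0.12 (SE), and the groups did not overlap in KRT8 and overlapped in CLDN3 and CD24. Of the 26 markers, 15 were not under the median probe set mean. Among these were SOX17, KRT8, CLDN3 and CD24. They also included PAX8 at -0.05, ST14 at -0.01, CLDN4 at 0.01, CLDN7 at 0.03 and FOXA2 at 0.04, with overlapping groups in each. The rest of these brighter markers were below 0, also with overlapping groups. They were LCN2 at -0.13, MUC1 at -0.09, ELF3 at -0.04, ESRP1 at -0.03, RAB25 at -0.02 and CLDN10 at -0.01. KRT19 was dim, with means of 2.94 at implantation sites and 3.33 at interimplantation sites. The epithelial markers EPCAM, CDH1 and KRT18, all dim, were at -0.07, -0.03 and -0.13. Their means, from 2.76 to 4.09, were under the median probe set mean in both groups. Other dim epithelial markers were higher, namely ALPL at 0.10, LTF at 0.08, SPINT1 at 0.08, PROM1 at 0.05 and KRT7 at 0.05. MSX1 and EHF, also dim, were at -0.04 and -0.03. A dim probe set shows neither that a transcript is missing nor that it is steady.

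The smooth muscle list averaged 4.97 to 5.05 at implantation sites, against 5.08 to 5.25 at interimplantation sites. Of its 16 measured genes 3 fell, ACTG2 (a muscle actin) by 0.80, TAGLN (an actin-binding protein) by 0.56 and MYLK (myosin light chain kinase) by 0.53 on the log2 scale. MYH11, the muscle myosin, was at 0.00. ACTA2, another muscle actin, was higher by 0.15 ± 0.08 (SE) without overlap of the groups and did not pass. The 3 falls are 18.8% of the list, against the 0.460% of all genes that passed as lower. Before adjustment (p under 0.05) 0 were higher and 5 lower. Of the 16 genes 9 were below 0, with a list median of -0.01. Each of these 3 calls was lost when any 1 of 5 arrays was left out (adjusted p up to 0.188). Among 14 endothelial genes 0 passed in limma's fit, where 0 were higher and 1 was lower before adjustment (p under 0.05), with SOX18 at -0.26 and KDR at -0.19. Of the 14 genes 12 were below 0, with a list median of -0.08. The list level was 4.32 to 4.33 at implantation sites, against 4.39 to 4.45 at interimplantation sites, a difference of -0.09 with no overlap. Of 15 stromal genes, PDGFRA, a receptor of stromal fibroblasts, fell by 0.66 at its brightest probe set and was at -0.08 and -0.06 at its others. COL1A1, a fibrillar collagen, rose by 0.56 at its brightest probe set and was at 0.05 to 0.27 at its 3 others. In either direction 13.3% of the stromal list passed, against 1.24% of all genes. The list had a level of 5.85 to 5.87 at implantation sites, against 5.80 to 5.92 at interimplantation sites.

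Of 14 leukocyte genes 1 fell in limma's test, which is 7.14%, against the 0.460% of all genes that passed as lower. It was SPI1, a myeloid factor, at -0.49, a call lost when any 1 of 5 arrays was left out (adjusted p up to 0.132). The means of SPI1, 3.59 and 4.09, were under the median probe set mean in both groups. CD52 was at 0.11. Of the 14 genes 5 were below 0, and the list level differed by -0.02 with overlapping groups. Limma called 0 of 14 trophoblast and embryo genes, and 0 had an unadjusted p under 0.05 (GCM1 at -0.08, AFP at -0.07). In the nerve list 1 of 10 measured genes rose, TUBB3, a tubulin, by 0.89. This is 10%, against the 0.777% of all genes that passed as higher. NEFM, a neurofilament, was at -0.11. The level of that list differed by 0.10, and without TUBB3 by 0.01 with overlapping groups. The red cell gene HBB was at -0.31 at its brightest probe set and at -0.23 and 0.01 at its others, and ALAS2 was at -0.16. The level of the red cell list differed by -0.10 with overlapping groups. The part of these cell types in the ATP1B1 result was not tested.

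**Figure D5:**
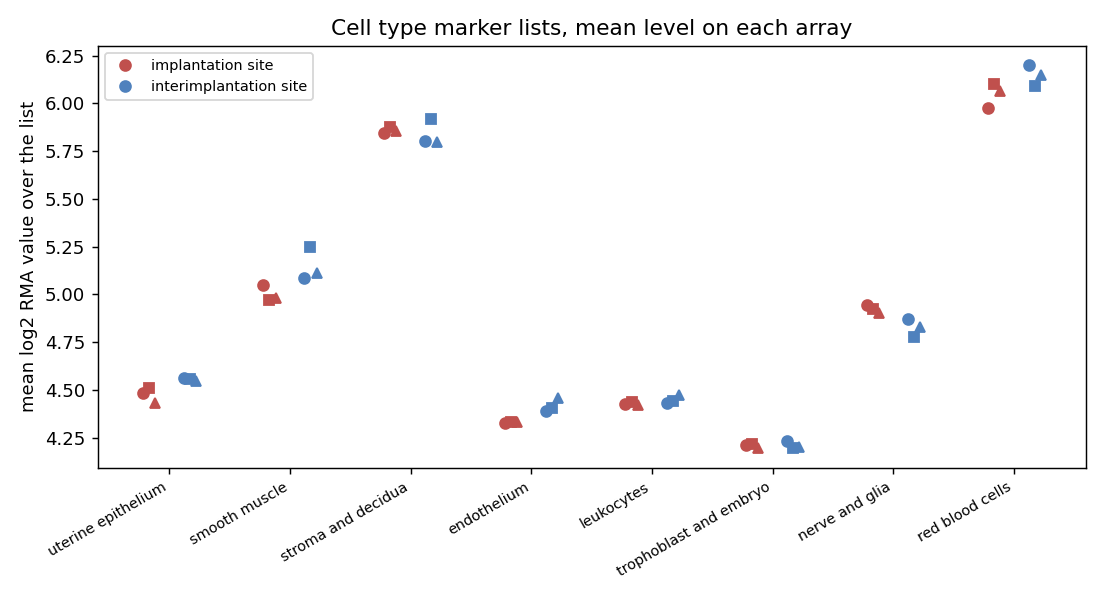
Mean log2 RMA value over each cell type marker list (vertical axis) on each array, with implantation sites in red and interimplantation sites in blue; circles, squares and triangles are replicates 1, 2 and 3. Levels of different lists are not comparable. The epithelial, smooth muscle and endothelial lists are lower at implantation sites without overlap, and the nerve list is higher by 0.10, or 0.01 without TUBB3.

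Signs of RNA quality were read as well, on control probes that are also of human sequence. Actin signal from the 3′ end minus that from the 5′ end was -2.33, -1.99 and -1.92 at implantation sites, against -1.59, -1.87 and -1.65 at interimplantation sites (exact permutation p = 0.1, two-sided, the smallest that 3 arrays against 3 allow). The actin groups did not overlap. For GAPDH the same measure was -0.30, -0.29 and -0.02 at implantation sites, against 0.12, -0.03 and 0.31 at interimplantation sites, and the groups overlapped (exact permutation p = 0.2, two-sided). The part of RNA quality in the ATP1B1 result was not tested.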

How the data were processed

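The deposited log2 values come from RMA, which corrects background, equalises arrays and summarises probes, and Partek 6.6, per the submitters' processing notes. Settings are not stated there, and the log base was read from the range of the values. Gene names come from the platform annotation. Of 22283 probe sets, 68 controls were left out and 22215 tested; 19065 had 1 gene symbol, 1043 several and 2107 none listed. A further probe set listed for FXYD2 together with its read-through with FXYD6 has several symbols and was not used. The comparison used R 4.3.3 and its package limma 3.58.1 (lmFit, eBayes, no covariate, two-sided, Benjamini-Hochberg adjustment over all probe sets or all 11963 genes, threshold 0.05), after a check on simulated data. For the lists, a gene was read at its brightest probe set. Named genes were all members, the list genes past the threshold, the 2 smallest p of each list, all measured genes of the list of further subunits, and the 5 nearest profiles. SCNN1B, EPCAM, CDH1, KRT18, KRT8, CLDN3, CD24, PAX8, ST14, CLDN4, CLDN7, FOXA2, MYLK, MYH11, ACTA2, ATP4B and the dimmer probe sets of listed genes were named after their values were seen. The remaining epithelial markers were also named after their values were seen. Members and lists were chosen with earlier results of these data known. The number of arrays limits the precision. Alternatives were other normalizations, a brightness filter, array weights, the replicate number as a block and leaving out single arrays; the nerve list without TUBB3 was added after seeing the data.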

Additional observations from a re-analysis of the deposited data

How the results depend on the processing

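Both ATP1B1 probe sets kept their direction under all 11 alternatives, from -2.10 to -1.89 at 201242_s_at and from -1.005 to -0.690 at 201243_s_at. Since the groups did not overlap at either probe set, leaving out or weighting arrays could not reverse the direction. The replicate block leaves the difference unchanged by design. With single arrays left out, 1 to 2 ATP1B1 probe sets, and likewise 1 to 2 of the 9 probe sets of the family, passed. Over all probe sets, 156 passed as higher and 79 as lower. Array weights gave 133 lower, and leaving out single arrays gave 83 to 140 higher (83 without interimplantation site 3) and 33 to 90 lower (33 without implantation site 1). Among the transport genes, where 1 rose and 2 fell, 0 rose with the brightness filter, which leaves out HSPA5, and 1 fell when a gene's probe sets were averaged. With single arrays left out, 0 to 1 rose and 1 to 4 fell. With the replicate number as a block 2 rose, ATP2A2 being added, and both ATP1B1 probe sets passed, at unchanged differences. Deviations of same-numbered arrays from their group means had correlations of 0.05, -0.00 and 0.07, against -0.07 to 0.02 for arrays of different number. Since the 3 deviations within a group sum to 0, this cannot show whether same-numbered arrays are pairs. The labels do not tie arrays to animals, and the numbers were not taken as pairs.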
